A study of Mus musculus with 6 samples.

Results

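The tubulin carboxypeptidases are the cytosolic carboxypeptidases that trim glutamate from the tails of tubulin, and the mouse has 6 genes for them: Agtpbp1, Agbl1, Agbl2, Agbl3, Agbl4 and Agbl5. All 6 were found by symbol among the 25239 genes of the deposited count table. They were chosen with the comparison below in view: Agbl2 stood among the largest falls in the conditional knockout, and the other members were chosen as its gene family. Their values in that comparison are therefore a description and carry no test.

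Messenger RNA was sequenced from fully growing mouse oocytes (FGO, the labels' name) of wild-type (WT) females and of females with a Gdf9-cre conditional knockout of Nat10 (cKO), with 3 libraries of each genotype. NAT10 is the enzyme that places N4-acetylcytidine on RNA, and Gdf9-cre is a Cre driver that acts in oocytes from early follicle stages onward. All oocytes were taken 36 to 48 hours after the females had received PMSG, which stimulates follicle growth, and polyadenylated RNA was made into libraries with the Smart-seq2 protocol. The labels give neither the age or strain of the mice, nor the number of oocytes in a library, nor whether the WT females carried floxed alleles or Cre, nor whether libraries came from separate animals. The p-values below measure the spread among these libraries, which may be technical.

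Tubulin tyrosine ligase-like (TTLL) enzymes build chains of glutamate on the disordered tails of alpha- and beta-tubulin. The cytosolic carboxypeptidases, which belong to the M14 family of zinc enzymes, shorten those chains or remove the glutamate at the branch point. The length of the chains sets how motors and severing enzymes bind the microtubule. The balance is best known from cilia, sperm tails and neurons: loss of Agtpbp1 in the mouse causes Purkinje cell degeneration and male infertility.

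The family is defined by its catalytic domain, and the short zinc-binding motif of that domain is shown here because it is the sequence that all 6 genes share. Each sequence is 60 bases of the coding strand, written 5′ to 3′, from the longest coding transcript of the gene in the GENCODE M21 annotation of the mm10 genome, and the capitals mark the 4 codons that run from the zinc-binding histidine to the glutamate.
Agtpbp1: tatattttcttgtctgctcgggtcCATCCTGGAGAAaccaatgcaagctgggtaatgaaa
Agbl1: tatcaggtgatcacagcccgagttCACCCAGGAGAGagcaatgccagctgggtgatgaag
Agbl2: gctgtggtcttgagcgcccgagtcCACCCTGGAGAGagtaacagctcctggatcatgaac
Agbl3: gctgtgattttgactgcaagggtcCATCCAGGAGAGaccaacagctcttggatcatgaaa
Agbl4: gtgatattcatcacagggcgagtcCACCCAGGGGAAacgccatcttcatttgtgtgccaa
Agbl5: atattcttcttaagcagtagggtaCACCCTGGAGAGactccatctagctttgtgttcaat

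The motif occurred once in each of these coding sequences and lay within a single coding exon. Its positions were chr13:59474666-59474677 on the minus strand for Agtpbp1 and, on the plus strand, chr7:76589404-76589415 for Agbl1, chr2:90801572-90801583 for Agbl2, chr6:34799662-34799673 for Agbl3, chr4:111526637-111526648 for Agbl4 and chr5:30892462-30892473 for Agbl5. Over the 60 bases, Agbl2 and Agbl3 were the most alike pair, with 47 identical positions (78.3%). Agbl1 and Agtpbp1 shared 41 positions (68.3%) and Agbl4 and Agbl5 shared 37 (61.7%), while the least alike pair, Agbl3 and Agbl5, shared 27 (45.0%). Each gene of these 3 pairs was most like its partner among the 6. Not every annotated isoform holds the motif: it was in 4 of 4 complete coding transcripts of Agbl2 and 6 of 6 of Agbl5, but in 2 of 7 of Agtpbp1 and 2 of 5 of Agbl3. Counts per gene cannot tell these isoforms apart.

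The libraries held 20167665 to 29407659 counts assigned to genes. Nat10 stood at 48.0, 45.0 and 64.5 CPM (counts per 1000000 assigned counts, scaled with TMM factors) in WT and at 7.18, 7.64 and 7.98 CPM in cKO, which is 14.5% of WT (log2 fold change -2.79 ± 0.19 SE, adjusted p = 1.95e-06, edgeR's quasi-likelihood test). The 11 oocyte markers summed to 23862 to 27709 CPM in WT and 28270 to 29751 CPM in cKO, with no overlap (exact two-sided permutation test, p = 0.1). Zp2, Zp3, Figla and Nobox were called higher and 0 were called lower (36.4% called, beside 40.2% of all genes). With the spike-in scaling given below, 0 were higher and 3 lower. The split was 1 higher and 1 lower with a trend with exonic length removed, and 1 higher and 0 lower without cKO replicate 1. It was 4 higher and 1 lower with the replicate block or without WT replicate 1. Library totals, or leaving out cKO replicate 3, gave 5 higher and 0 lower. The 13 granulosa and cumulus cell markers summed to 83.4 to 86.5 CPM in WT and 67.4 to 68.9 CPM in cKO (exact two-sided permutation test, p = 0.1, the smallest value that 3 against 3 libraries allow). Cyp19a1 and Nr5a2 made up most of that sum, Inha and Hsd17b1 were called lower, and the defining markers Foxl2 and Amh were near the floor of detection and Tnfaip6 was at 0. Inhba also lay lower, at 2.57 ± 0.244 CPM in WT and 1.14 ± 0.725 CPM in cKO with no overlap (log2 fold change -1.17 ± 0.49 SE, adjusted p = 0.0719). Fshr lay the other way, at 1.26 ± 0.636 CPM in WT and 2.39 ± 0.0492 CPM in cKO with no overlap (log2 fold change 0.92 ± 0.43 SE, adjusted p = 0.103), and was called higher without WT replicate 2 (1.42, adjusted p = 0.0325). The list had 3 lower and 0 higher with limma-voom, the replicate block or without cKO replicate 3. Spike-in scaling gave it 4 lower and 0 higher. Of 14114 genes tested, 5674 (40.2%) passed an adjusted p of 0.05, with 2836 (20.1%) higher and 2838 (20.1%) lower in cKO. The WT and cKO libraries did not overlap in CPM for 7337 of the tested genes (52.0%). With library totals in place of TMM factors the split was 3450 higher and 2253 lower and the median of all genes moved from 0.01 to 0.12 (log2). With the share of ERCC spike-in RNA as the scale the split was 1182 higher and 4832 lower, and the median was -0.39. What the ERCC share was taken of is not stated. This scaling takes it as a share of the same reads as the mapping share, with spike-in reads counted among those mapped. In bulk libraries of this kind, fewer cells of a type and less RNA per cell cannot be told apart.

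Of the 6 genes, Agbl2 was nearly lost from cKO oocytes, Agtpbp1 stood at 48.1% of its WT level, Agbl5 was higher, and Agbl1 and Agbl3 were not called. Agbl4 stood at the floor of detection. Only 5 of the 6 passed the filter on low counts and could be fitted. Among these 5, edgeR called 2 lower and 1 higher, beside 40.2% called over the whole table. The comparison was used to choose the genes, so nothing is read from that share.

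**Figure D1:**
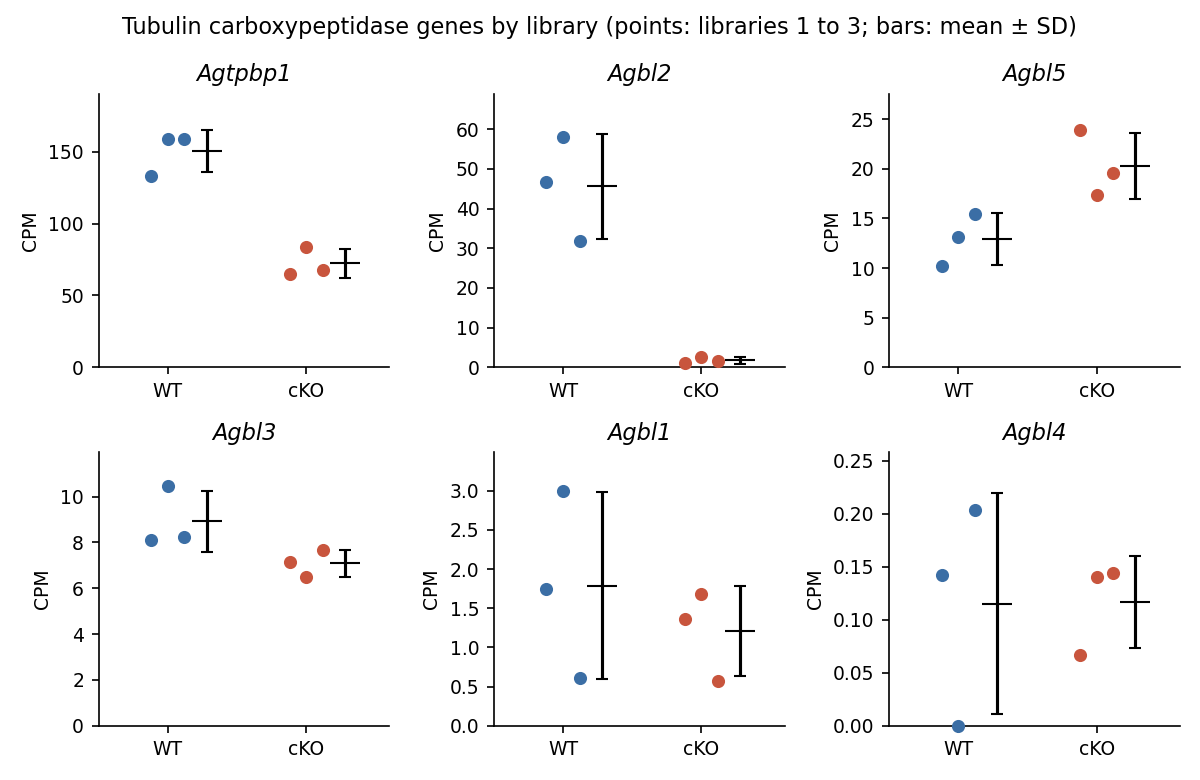
Level of each tubulin carboxypeptidase gene in CPM (y axis, linear and starting at 0, with its own range for each gene) in the 3 WT and 3 cKO libraries. Each point is a library and the bar is the mean ± SD. Agbl2 falls from 31.9 to 58.1 CPM in WT to 1.07 to 2.63 CPM in cKO, and Agbl4 stays near 3 counts per library in both genotypes.

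Agbl2 encodes CCP2, a deglutamylase found at centrioles and basal bodies in ciliated cells. The gene (ENSMUSG00000040812.14) lies on the plus strand of chromosome 2 at 90782727 to 90834437, with 4956 exonic bases, and its exons overlap those of no other gene in the table. The WT libraries held 1312, 1260 and 627 counts and the cKO libraries 32, 75 and 40 counts. As CPM, Agbl2 stood at 46.8, 58.1 and 31.9 in WT and at 1.07, 2.63 and 1.44 in cKO. Every WT library was far above every cKO library, and the third WT library was the lowest of its group. The mean went from 45.6 ± 13.2 CPM (SD, n = 3) to 1.71 ± 0.816 CPM (SD, n = 3), which is 3.76% of WT, with a log2 fold change of -4.73 ± 0.33 SE. The remaining reads were above the floor of 3 counts, since the cKO libraries held 32, 75 and 40. Scaled by library totals without TMM factors, 3 counts correspond to 0.102 to 0.149 CPM in the 6 libraries.

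Among the 8702 tested genes with at least 10 CPM in a genotype, only Manba (log2 fold change -5.23) and Cdc5l (-4.98) had a lower fold change than Agbl2, and Gcnt2 came next at -4.65. The fold change of Agbl2 ranged from -5.2 to -4.48 over the main fit and 14 alternatives. The plot of fold change against mean level shows Agbl2 at the lower edge of the genes of its level.

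**Figure D2:**
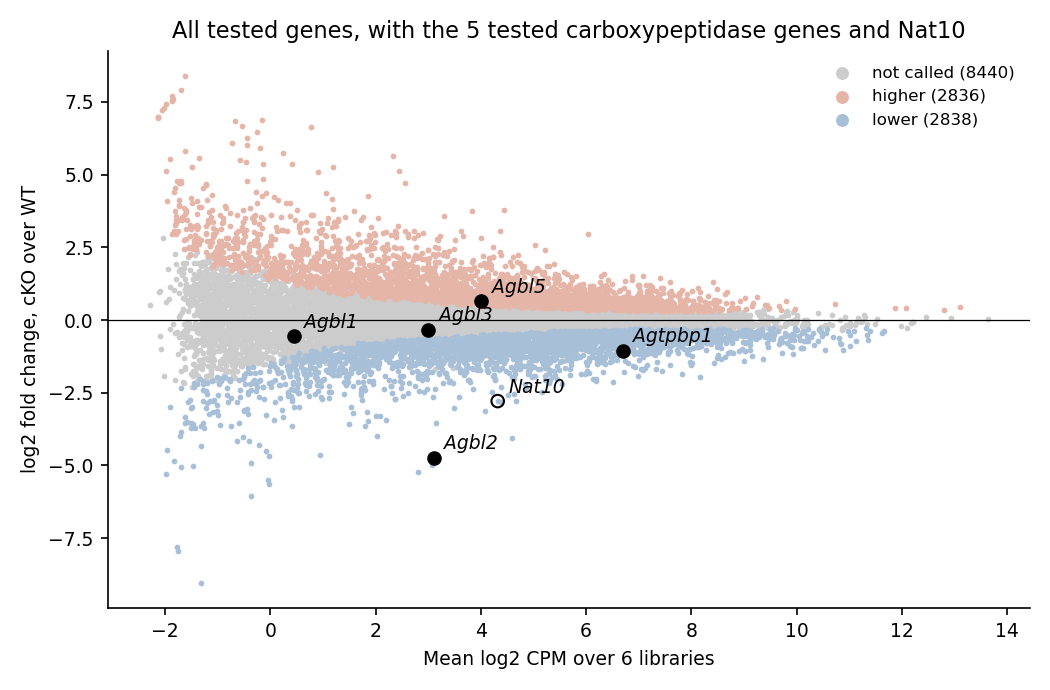
log2 fold change of cKO over WT (y axis) against the mean log2 CPM over the 6 libraries (x axis) for the 14114 tested genes. Coloured points passed an adjusted p of 0.05 (2836 higher, 2838 lower), black points are the 5 tested carboxypeptidase genes and the open circle is Nat10, and Agbl2 at -4.73 lies below Nat10 at -2.79.

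Agtpbp1 encodes CCP1, the founding member, which shortens long glutamate chains in neurons and in sperm. It lies on the minus strand of chromosome 13 at 59449535 to 59557347 and has 6074 exonic bases. Its level was 134, 159 and 159 CPM in WT and 65.3, 83.9 and 67.9 CPM in cKO. The groups did not overlap, and the second cKO library was the highest of its group. The mean went from 150.5 ± 14.7 CPM (SD, n = 3) to 72.4 ± 10.1 CPM (SD, n = 3), with a log2 fold change of -1.06 ± 0.14 SE that ranged from -1.47 to -0.87 over the alternatives.

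Agbl5 encodes CCP5, the enzyme that removes the glutamate at the branch point. It lies on the plus strand of chromosome 5 at 30888852 to 30906666 and has 4967 exonic bases. Its level was 10.2, 13.1 and 15.4 CPM in WT and 24.0, 17.3 and 19.6 CPM in cKO. The groups did not overlap, although the highest WT library and the lowest cKO library lay close together. The mean was 12.9 ± 2.62 CPM in WT and 20.3 ± 3.37 CPM in cKO (SD, n = 3 each), and the log2 fold change was 0.66 ± 0.21 SE. With spike-in scaling the fold change was 0.29 and was not called, and the call was also lost without WT replicate 1 (0.53), WT replicate 2 (0.68) or cKO replicate 1 (0.52). Agbl5 shares 151 exonic bases, 3.04% of its exons, with Ost4 on the opposite strand, a small subunit of the oligosaccharyltransferase. Ost4 was itself higher in cKO, at 26.0 ± 0.814 CPM in WT and 36.6 ± 1.52 CPM in cKO (log2 fold change 0.50 ± 0.15 SE, adjusted p = 0.0181), and the libraries do not keep the strand, so reads of the shared bases cannot be told apart.

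Agbl3 encodes CCP3, the closest relative of CCP2 in the stretch of sequence shown above. It lies on the plus strand of chromosome 6 at 34780432 to 34859459. Its level was 8.09, 10.5 and 8.24 CPM in WT and 7.14, 6.49 and 7.66 CPM in cKO. The groups did not overlap, but the gap between them was small and the log2 fold change of -0.33 ± 0.23 SE was not called. With spike-in scaling, which put the median of all genes at -0.39, it was -0.74 and was called lower.

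Agbl1 encodes CCP4, whose human gene is linked to a corneal dystrophy. It lies on the plus strand of chromosome 7 at 76229887 to 77124698 and was low, at 1.75, 3.0 and 0.610 CPM in WT and 1.37, 1.68 and 0.575 CPM in cKO. The groups overlapped, and the third library was the lowest in both genotypes. The log2 fold change was -0.56 ± 0.58 SE and came to 0.04 without WT replicate 2, and the WT libraries alone spanned 12 to 65 counts.

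Agbl4 encodes CCP6, a deglutamylase of long chains. It lies on the plus strand of chromosome 4 at 110397698 to 111664324, and its 6 libraries held 4, 0 and 4 counts in WT and 2, 4 and 4 counts in cKO. Both groups stood at or near the floor of 3 counts, and no fold change is given.

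Levels of different genes can be compared per kilobase of exon. On that scale Agtpbp1 was the highest of the family in WT at 24.8 ± 2.42 CPM per kilobase (SD, n = 3), followed by Agbl2 at 9.20 ± 2.65, Agbl5 at 2.60 ± 0.527, Agbl3 at 1.6 ± 0.238 and Agbl1 at 0.530 ± 0.355. The libraries of neighbours in this order did not overlap. In cKO, Agtpbp1 remained the highest at 11.9 ± 1.66 CPM per kilobase, followed by Agbl5 at 4.09 ± 0.679 and Agbl3 at 1.27 ± 0.105. Agbl1 at 0.359 ± 0.169 and Agbl2 at 0.345 ± 0.165 came last before Agbl4, and their libraries overlapped. Agbl2 had thus moved from the second to the fifth place.

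The 6 genes together summed to 38.7 ± 4.06 CPM per kilobase in WT and 18.0 ± 1.34 in cKO (SD, n = 3 each), which is 46.5% of WT. Agbl2 made up 23.6% ± 5.59 of the WT sum and 1.89% ± 0.759 of the cKO sum (SD, n = 3 each). The share of Agbl5 was 6.72% ± 1.36 in WT and 22.9% ± 4.87 in cKO. Agtpbp1 made up 64.1% ± 5.12 in WT and 66.0% ± 4.64 in cKO, so that the family stayed dominated by it in both genotypes.

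**Figure D3:**
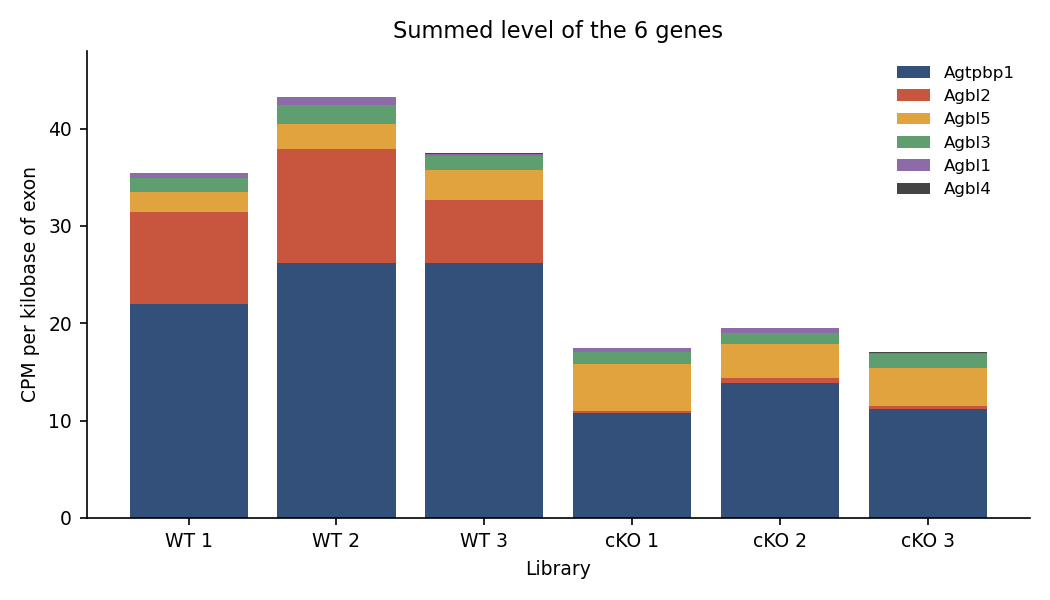
Summed level of the 6 tubulin carboxypeptidase genes in CPM per kilobase of exon (y axis, from 0) in each library, stacked by gene. The Agbl2 block averages 23.6% of the WT bars and 1.89% of the cKO bars, and the Agtpbp1 block is the largest in all 6 libraries.

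The polyglutamylases do the opposite work, and 8 of the 9 TTLL genes of that class could be tested. Ttll1, Ttll4, Ttll5 and Ttll7 fell in cKO and none was called higher, with a median log2 fold change of -0.61 over the 8 beside 0.01 over all tested genes. The 4 called are 50.0% of those tested, beside 40.2% of all genes. Per kilobase the 9 genes summed to 106.7 ± 10.5 CPM in WT and 80.8 ± 5.98 CPM in cKO (SD, n = 3 each).

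Ttll1 is the catalytic subunit of the polyglutamylase complex and acts on alpha-tubulin. It stood at 26.1, 25.8 and 20.4 CPM in WT and at 7.51, 6.94 and 7.12 CPM in cKO, with no overlap (log2 fold change -1.75 ± 0.19 SE, adjusted p = 3.61e-05). Ttll7, which starts and lengthens chains on beta-tubulin, held 178, 172 and 70 counts in WT and 4, 6 and 0 counts in cKO. Its fitted log2 fold change was -5.63 ± 0.61 SE (adjusted p = 3.19e-05), and it went to -6.31 without cKO replicate 2, since the cKO libraries stood near the floor.

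Ttll4, an initiating enzyme that puts the first glutamate on beta-tubulin, went from 148.8 ± 19.0 CPM to 88.4 ± 12.5 CPM (log2 fold change -0.75 ± 0.14 SE, adjusted p = 0.00128). Ttll5, an initiating enzyme for alpha-tubulin, went from 44.9 ± 5.05 CPM to 32.3 ± 4.68 CPM (log2 fold change -0.47 ± 0.16 SE, adjusted p = 0.0335). The Ttll5 call was lost with library totals (adjusted p = 0.0867), with the length trend removed (adjusted p = 0.114) and without WT replicate 1 or 2 or cKO replicate 1 or 3 (adjusted p from 0.0554 to 0.151). Ttll11, an elongating enzyme, was the most abundant of the class per kilobase at 58.1 ± 5.81 in WT and 52.5 ± 3.74 in cKO, and did not pass the test (log2 fold change -0.15 ± 0.12 SE, adjusted p = 0.358). Ttll6 and Ttll13 did not pass it either, and Ttll2 was listed at 0. Ttll9, a ciliary TTLL enzyme, had the one fitted value above 0 of the class, at 2.23 ± 0.497 CPM in WT and 3.68 ± 1.24 CPM in cKO (log2 fold change 0.73 ± 0.36 SE, adjusted p = 0.123). It was called higher without cKO replicate 2 (0.98, adjusted p = 0.0467).

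Of the 5 partners of TTLL1 in its complex, Tpgs2 fell from 449 ± 55.2 CPM to 312 ± 26.6 CPM (log2 fold change -0.53 ± 0.12 SE, adjusted p = 0.00472), a call that was lost when a trend with exonic length was removed (-0.33, adjusted p = 0.0643). Tpgs1, the other tubulin polyglutamylase complex subunit of that name, stood at 24.4 ± 1.10 CPM in WT and 29.9 ± 4.51 CPM in cKO and did not pass the test, nor did Nicn1, Lrrc49 and 1110051M20Rik. Per kilobase Tpgs2 and Tpgs1 were the most abundant of the 5. The 1 called partner is 20% of the 5 tested, beside 40.2% of all genes, so nothing is read from it about the complex.

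Enzymes of the other tubulin modifications were mostly not called. Of the tyrosination cycle, in which Ttl restores and the vasohibins with Svbp remove the last tyrosine of alpha-tubulin, none of 5 tested genes passed edgeR's test. Svbp, the most abundant of them per kilobase, stood at 25.9 ± 3.87 CPM in WT and 27.4 ± 3.94 CPM in cKO (adjusted p = 0.738), and Ttll12, the next, stood at 11.3 ± 5.23 and 14.4 ± 2.88 CPM (adjusted p = 0.371). Without WT replicate 3, Ttll12 was called higher (log2 fold change 0.75, adjusted p = 0.0487). The glycylase Ttll10 was the only tested gene of its list and did not pass (4.96 ± 0.299 CPM in WT, 6.14 ± 0.943 CPM in cKO, adjusted p = 0.348), and Ttll3 was at the floor. The acetyltransferase Atat1 stood at 28.1 ± 3.95 CPM in WT and 29.8 ± 0.451 CPM in cKO (adjusted p = 0.714), and the deacetylase Hdac6 did not pass. The deacetylase Sirt2 fell from 21.9 ± 2.10 CPM to 15.1 ± 0.544 CPM (log2 fold change -0.54 ± 0.18 SE, adjusted p = 0.0269), but 149 of its exonic bases are shared with Gm19897 and the call was lost in 7 alternatives, with adjusted p from 0.0537 to 0.0955 in those 7. Over all 22 tested modifying enzymes and partners, 6 were lower and none higher (27.3% called, beside 40.2% of all genes), with a median of -0.22. With spike-in scaling 11 of the 22 were lower, and without WT replicate 3 or cKO replicate 2 the split was 1 higher and 5 lower.

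Severing enzymes cut microtubules, and glutamate chains recruit spastin to them. Of 6 tested, 4 fell and 1 rose (83.3% called, median log2 fold change -0.59), beside 40.2% of all genes. The split was 1 higher and 3 lower with library totals, and 0 higher and 4 lower with spike-in scaling. With single libraries left out it was 0 to 1 higher and 3 to 4 lower. Spast, which encodes spastin, stood at 148, 167 and 155 CPM in WT and at 98.6, 101 and 99.9 CPM in cKO. The cKO libraries lay close together below all WT libraries (log2 fold change -0.65 ± 0.12 SE, adjusted p = 0.000826).

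Katnbl1, a katanin regulatory subunit, fell from 159.6 ± 11.2 CPM to 80.4 ± 17.1 CPM (log2 fold change -0.99 ± 0.16 SE, adjusted p = 0.000368). Fignl1, a fidgetin-like ATPase that also acts in recombination, fell from 107 ± 20.5 CPM to 50.1 ± 12.2 CPM (log2 fold change -1.09 ± 0.19 SE, adjusted p = 0.000747). The catalytic subunit Katnal1 rose from 28.5 ± 4.03 CPM to 40.8 ± 3.37 CPM (log2 fold change 0.52 ± 0.16 SE, adjusted p = 0.0221). It was not called with spike-in scaling (0.14) or without WT replicate 1 or 2 or cKO replicate 1 or 2 (adjusted p from 0.0531 to 0.0869). Katnal2 did not pass the test, and Katna1 was listed at 0 in 5 of 6 libraries.

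**Figure D4:**
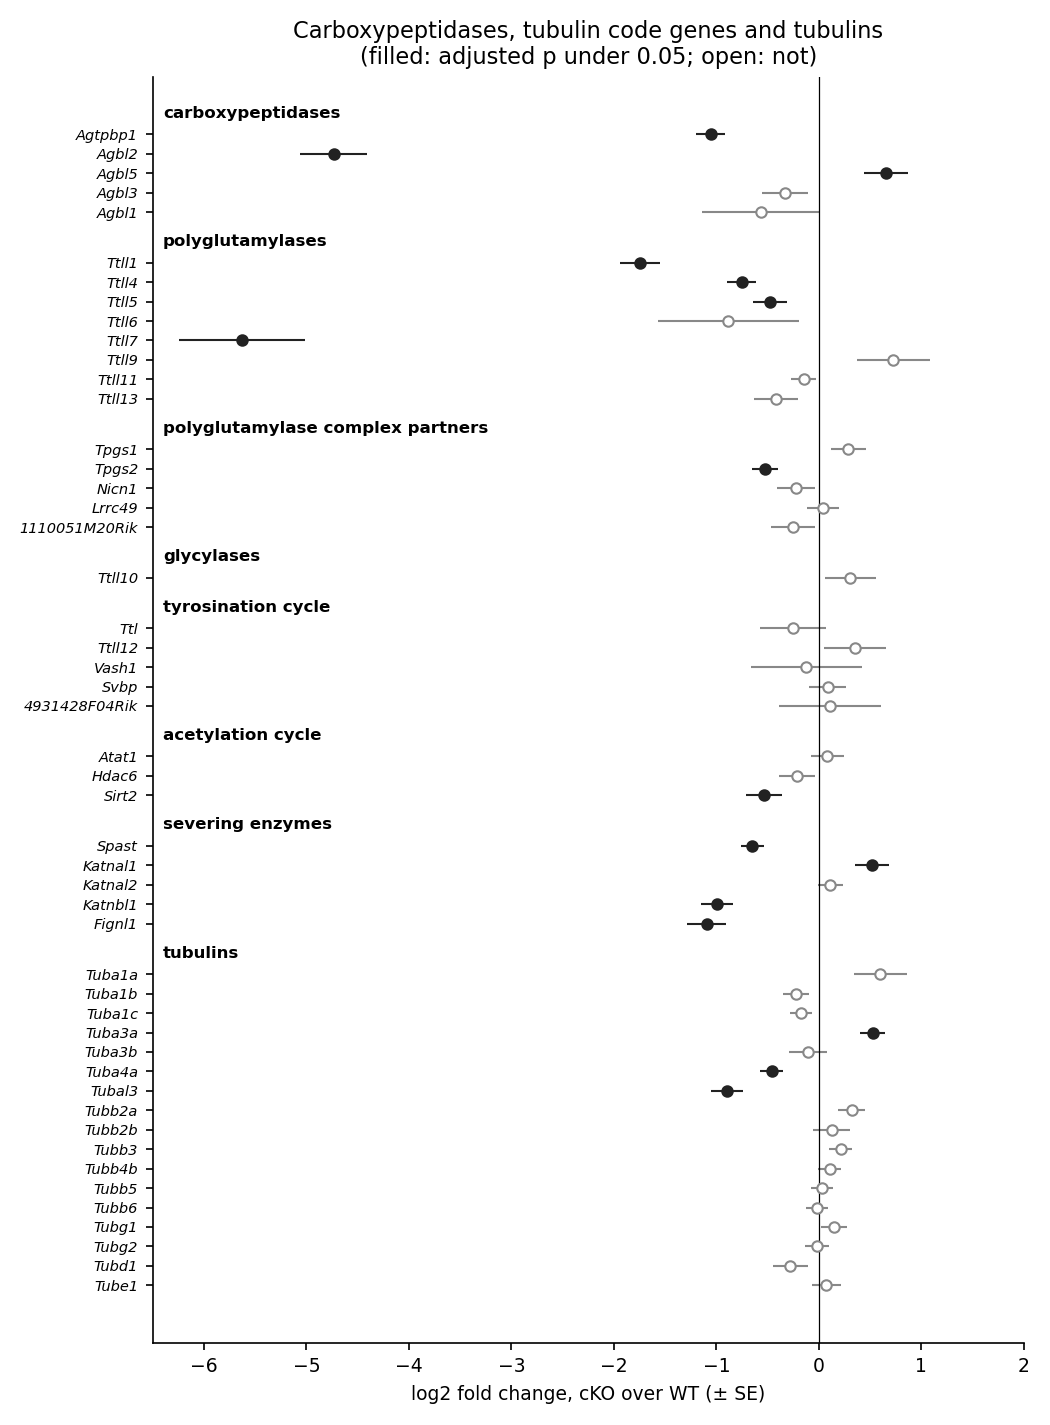
log2 fold change of cKO over WT with its SE (x axis) for the tested carboxypeptidases, enzymes of the tubulin code, severing enzymes and tubulins (y axis, grouped by list, with 1 severing enzyme not drawn). Filled points passed an adjusted p of 0.05. Agbl2 (-4.73) and Ttll7 (-5.63) lie farthest to the left, and most tubulins lie near 0.

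The substrates of these enzymes are the tubulins, and of 17 tested tubulin genes, 1 was higher and 2 were lower (17.6% called, beside 40.2% of all genes), with a median of 0.04. The split was 3 higher and 2 lower with library totals or the replicate block, and 0 higher and 5 lower with spike-in scaling. Tubb4b, the most abundant per kilobase, stood at 1876 ± 203 CPM in WT and 2018 ± 112 CPM in cKO (adjusted p = 0.470), and Tubb2a, the next, at 814.6 ± 145 and 1018 ± 45.1 CPM (adjusted p = 0.0660). Tubb2a was called higher in 5 alternatives, with adjusted p from 0.0152 to 0.0431 in those. Tubal3 fell from 93.6 ± 9.17 CPM to 50.4 ± 8.97 CPM (log2 fold change -0.89 ± 0.15 SE, adjusted p = 0.000669). Tuba4a fell by 0.46 on the log2 scale (426 ± 4.35 CPM in WT, adjusted p = 0.00468), but 27.3% of its exonic bases are shared with Stk16. Tuba3a rose by 0.53 on the log2 scale (296 ± 37.9 CPM in WT, adjusted p = 0.00401), and with spike-in scaling it was 0.13 and not called. Its near-identical copy Tuba3b did not pass, and no source used here says how reads shared by the copies were split.

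The M14 family also holds secreted and vesicular carboxypeptidases that do not act on tubulin. Of 11 tested, 2 rose and 2 fell (36.4% called, beside 40.2% of all genes), with a median of -0.30. The split was 1 higher and 4 lower with the length trend removed or without WT replicate 3, and 1 higher and 5 lower with spike-in scaling. Without WT replicate 2, or without any single cKO library, it was 1 higher and 2 lower. Cpxm2, which lacks residues needed for catalysis, fell from 24.4 ± 3.30 CPM to 8.92 ± 1.72 CPM (log2 fold change -1.45 ± 0.21 SE, adjusted p = 0.000201). Cpm, a membrane carboxypeptidase, fell from 31.8 ± 6.07 CPM to 15.4 ± 2.79 CPM (log2 fold change -1.04 ± 0.20 SE, adjusted p = 0.00133). Cpn1 was called higher (0.86 ± 0.31 SE, adjusted p = 0.0397), but the call was lost in 7 alternatives, with adjusted p from 0.0612 to 0.251 in those. Cpa1, the most abundant of the list, stood at 622.9 ± 69.8 CPM in WT and 534.5 ± 45.5 CPM in cKO and did not pass (adjusted p = 0.159), nor did Cpb2, the next (adjusted p = 0.0619). Cpa1 was called lower with the length trend removed (-0.38, adjusted p = 0.0169) and with spike-in scaling (-0.63, adjusted p = 0.0113). It was also called lower without WT replicate 3 (-0.31, adjusted p = 0.0487). The carboxypeptidase inhibitors Rarres1 and Lxn were too low to be tested.

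Agbl2 is also a gene of motile cilia, and markers of ciliated cells were read for that reason. The 8 markers summed to 22.7, 21.2 and 20.1 CPM in WT and to 12.2, 18.2 and 16.4 CPM in cKO, with no overlap (exact two-sided permutation test, p = 0.1, the smallest value possible). Foxj1, the master regulator of motile cilia, was at 0 in every library. Dnah5, an axonemal dynein, made up most of the sum and was the 1 marker called (14.1 ± 0.656 CPM in WT, 9.63 ± 1.6 CPM in cKO, adjusted p = 0.0469). That call was lost in 8 alternatives: library totals, no filter, the length trend removed, and without any single WT library, cKO replicate 1 or cKO replicate 3 (adjusted p from 0.0586 to 0.433). Of the list, 3 of 5 tested markers were lower with spike-in scaling and 3 of 6 without cKO replicate 2, with 0 higher in both. Tekt1 lay the other way, at 0.630 ± 0.504 CPM in WT and 1.68 ± 1.06 CPM in cKO (log2 fold change 1.37 ± 0.65 SE, adjusted p = 0.108), and was called higher without WT replicate 1 (2.31, adjusted p = 0.0351). In WT, Agbl2 alone stood at 45.6 CPM, above the sum of the ciliated list. CPM of different genes is not scaled for exonic length, so nothing is read from that order. The 10 markers of theca, stroma, vessel and immune cells summed to 63.6 to 65.6 CPM in WT and 60.8 to 72.9 CPM in cKO (exact permutation test, p = 0.7). Pecam1 made up most of that sum, so it says little of the other markers. Of 5 tested, Acta2 alone was called, from 0.833 ± 0.481 CPM to 0.0707 ± 0.0701 CPM (log2 fold change -3.50 ± 0.93 SE, adjusted p = 0.00956). It stood near the floor in cKO, and no marker of the list was called without WT replicate 1. The list had 2 lower and 0 higher with DESeq2, with no filter and without WT replicate 3. Pdgfra (-0.74) lay the same way as Acta2, while Star (0.42), Cd68 (0.33) and Pecam1 (0.06) lay the other way. None of these was called. The part of these markers in the values of Agbl2 was not tested further.

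Nat10 and Agbl2 both lie on chromosome 2, 12886820 bases apart, so the genes around Agbl2 were read as well. The nearest gene, Fnbp4, which encodes a formin-binding protein, lies on the same strand and ends 1706 bases before Agbl2 starts. Fnbp4 stood at 252, 272 and 189 CPM in WT and at 61.4, 93.3 and 69.5 CPM in cKO. All WT libraries were above all cKO libraries, the third WT library was again the lowest of its group, and the log2 fold change was -1.67 ± 0.18 SE (adjusted p = 2.55e-05).

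On the same side, the nucleoporin gene Nup160 did not pass the test (log2 fold change -0.37 ± 0.17 SE, adjusted p = 0.0918), and the phosphatase gene Ptprj fell from 24.0 ± 6.46 CPM to 14 ± 1.6 CPM (adjusted p = 0.0130). On the other side, Mtch2 did not pass (4.53 ± 0.223 CPM in WT, 5.2 ± 1.34 CPM in cKO, adjusted p = 0.601), Ndufs3 was too low to be tested, and C1qtnf4, Kbtbd4 and Ptpmt1 were listed at 0, as were the olfactory receptor genes Olfr1273-ps and Olfr1274. Within 1000000 bases of Agbl2, 3 of 25 tested genes were higher and 5 lower (32.0% called), with a median log2 fold change of 0.08. Between Agbl2 and Nat10, 8 of 48 tested genes were higher and 12 lower (41.7%), with a median of -0.07, beside 39.8% of the 1098 tested genes of chromosome 2.

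**Figure D5:**
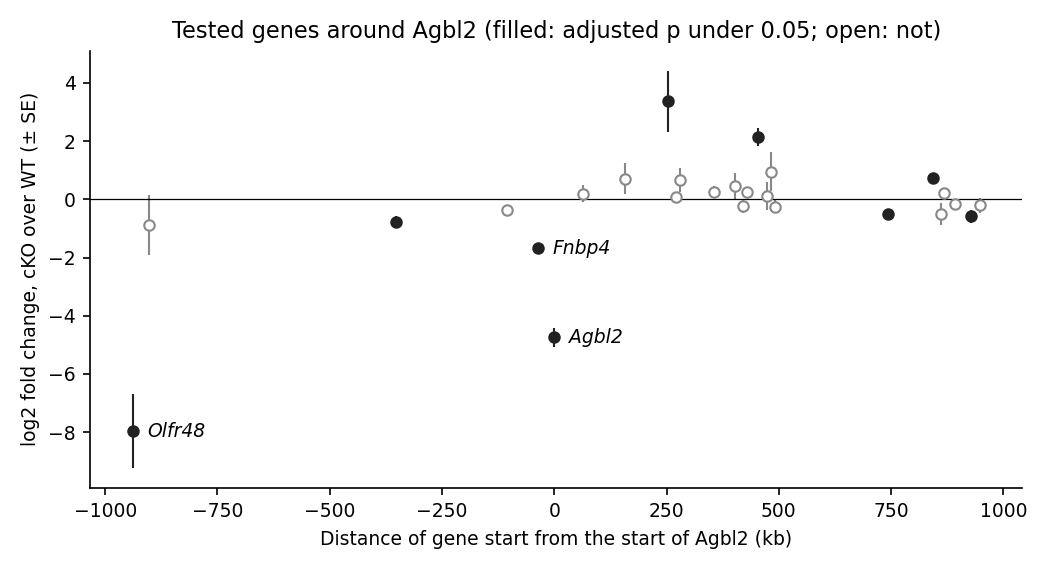
log2 fold change of cKO over WT with its SE (y axis) for the tested genes near Agbl2, against the distance of each gene's start from the start of Agbl2 in kilobases (x axis). Filled points passed an adjusted p of 0.05. Fnbp4 (-1.67) lies next to Agbl2 (-4.73), and Olfr48, with 39, 36 and 10 counts in WT and 0 in each cKO library, is the lowest point.

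The genes whose profile over the 6 libraries was most like that of Agbl2 were found by the Euclidean distance of log2 CPM centred on each gene's mean, among 8701 other tested genes with at least 10 CPM in a genotype. They were Gcnt2, a glycosyltransferase (distance 1.10), Tmem87a, a Golgi membrane protein (1.14), Chst11, a chondroitin sulfotransferase (1.27), Cdc5l, a spliceosome component (1.54), and Plek, which encodes pleckstrin (1.54). All 5 were among the 8 genes with the lowest fold changes at that level, so the likeness largely restates the genotype difference. Tmem87a is also on chromosome 2 and went from 99.2 ± 3.70 CPM to 5.94 ± 1.23 CPM. None of the 5 is an enzyme of the tubulin code.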

How the data were processed

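Per the submitters' processing notes, reads were handled with Trim Galore 0.6.7, STAR 2.7.10a and featureCounts on mm10. Annotation, strand and multi-mapping settings are not given in the sources used here. The deposited values were raw counts per gene symbol with exonic lengths. The authors' second table gave a spike-in (ERCC) share and a mapping share for each library, without saying what the ERCC share was taken of. Of 25239 genes, 5887 had no count. Smart-seq2 reads carry no molecular identifiers, and floors (3 counts) cover counting error only, while SDs and SEs hold the spread among libraries.

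From the counts, edgeR 4.0.16 (R 4.3.3) was run over all 6 libraries with TMM factors, a filter at a minimum count of 10 (filterByExpr), a quasi-likelihood test of genotype and Benjamini-Hochberg adjustment at 0.05 over 14114 genes. The script was tested on simulated data. SEs are the fitted log2 fold change divided by the square root of its F statistic. Profiles were compared as log2 CPM with a prior count of 2. Alternatives were DESeq2 size factors, library totals, ERCC scaling, no filter, DESeq2 1.42.0, limma-voom 3.58.1, a length trend removed (mgcv 1.9.3), a replicate block and each library left out. No pair of libraries agreed within sampling noise (chi-square per degree of freedom from 18.2). Genes were named by a rule: the family, Nat10, called and the 2 most abundant list genes, the 5 genes most like Agbl2, 5 neighbours per side, and genes overlapping a member. Olfr48, Manba, the markers and the uncalled list genes named beside these were added after their values were seen. The genes of 2 calls that the lists count are not reported here by name. The members and lists were chosen with earlier results of these data known.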

Additional observations from a re-analysis of the deposited data

How the results depend on the processing

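Of the recomputed fold changes of single named genes, 413 kept their direction and their side of the threshold, 37 lost and 14 gained a call, and 12 changed sign, none of them called in either fit. With spike-in scaling the sign changed for Atat1 (-0.30), Katnal2 (-0.29), Svbp (-0.35), Tpgs1 (-0.12), Ttll10 (-0.071), Tubb2a (-0.062) and Tubb4b (-0.30), and with the length trend removed for Svbp (-0.14) and Tubb4b (-0.051). With single libraries left out, Agbl1 ranged from -0.96 to 0.040 and Svbp from -0.028 to 0.20. The tubulin code genes are the modifying enzymes, partners and severing enzymes above. Of 28 tested, 1 was higher and 10 were lower in the main fit (39.3% called, beside 40.2% of all genes). Spike-in scaling gave 1182 genes higher and 4832 lower, with 0 carboxypeptidase genes and 0 tubulin code genes higher. The cause was not tested. Leaving out single libraries gave 0 to 1 carboxypeptidase genes higher (2 lower throughout), 0 to 2 tubulin code genes higher, 7 to 9 lower, and 2181 to 2797 genes higher and 2116 to 2709 lower over all genes. The difference in summed oocyte markers, cKO minus WT, was 2654 CPM and became 4891 CPM with library totals (1378 to 3301 with single libraries left out). That of granulosa and cumulus markers was -16.7 CPM and became -10.6 CPM with library totals (-17.3 to -15.8). For ciliated cell markers the difference was -5.75 CPM (-7.04 to -4.05 with single libraries left out). That of theca, stroma, vessel and immune markers was 2.07 CPM and reversed to -1.05 CPM without cKO replicate 2 (-1.05 to 4.97). Agbl4 held 0 to 4 counts in a library and Ttll7 0 to 6 in cKO, at or near the floor.

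The replicate numbers are not stated to pair the libraries. Deviations of same-numbered libraries correlated at -0.02, 0.06 and 0.11, and WT replicate 1 correlated best with cKO replicate 2. With the replicate block, 3089 genes were higher and 3110 lower, the counts of carboxypeptidase genes (1 higher, 2 lower) and tubulin code genes (1 higher, 10 lower) were the same, and Agbl2 was at -4.77.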
